A study of Homo sapiens and Mus musculus with 4 samples.

Results

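The BCL2 family regulators of apoptosis were described in 4 lymphoid cell lines, in each of which messenger RNA had been measured by bulk RNA sequencing. The human members were BCL2, BCL2L1, MCL1, BCL2A1, BAX, BAK1, BCL2L11, BID, BAD and PMAIP1, taken by symbol, and the mouse members were the genes of the same symbols, with the 4 Bcl2a1 paralogues standing for BCL2A1. This gave 23 of 60736 genes in the table, 10 of 32738 human genes and 13 of 27998 mouse genes. The rule that chose them uses symbols and no measured value, but the members were chosen with earlier results of these data known.

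Each line was represented by 1 library, made with a TruSeq Stranded mRNA kit, and served the study as a bulk baseline for the assessment of single-cell methods. Jurkat is a human line from a T-cell leukaemia, which the study treats as CD4+ T cells, and TALL104, also human and from a T-cell leukaemia, is used there as CD8+ T cells and was cultured with the growth cytokine interleukin-2. According to the study, TALL104 was also harder to culture than the other lines, grew slowly and had limited viability. The state of the cells behind its bulk library is not given. EL4 comes from a mouse T-cell lymphoma and stands for mouse CD4+ T cells, and IVA12 is a hybridoma of the mouse B lineage, which is a fusion of an antibody-producing cell with a myeloma cell. No line carried an engineered allele or received an experimental treatment according to the labels and methods. Lines were compared within a species, and a line cannot be told apart from its culture conditions or from its library, since there were no replicates. The spread between cultures was therefore not measured, and no p-value is given.

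Levels are given in FPKM, which is the number of fragments per kilobase of gene length and per sequencing depth. The values resolved to whole reads in each library, and the totals that FPKM was divided by were 25286728 to 34783047 reads. The 95% intervals below are exact Poisson intervals (for ratios, exact binomial intervals) that cover counting error only. A member was counted as different between lines of a species when the ratio of FPKM + 1 was past 1.5-fold. Folds are ratios of the FPKM values themselves, and log2 ratios are of FPKM + 1, which draws low genes toward 0. In the human pair the median ratio of genes at 1 FPKM or more in both lines was 0.11 on the log2 scale toward Jurkat, and in the mouse pair it was -0.02. Mitochondrially encoded genes held 14.9% of the human FPKM in Jurkat and 20.6% in TALL104, and 5.04% and 4.79% of the mouse FPKM in EL4 and IVA12.

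The labelled cell types were checked against their markers. All 7 T-cell markers tested, from CD3D to LCK, were at 1 FPKM or more in Jurkat, TALL104 and EL4, whereas 2 of 7 were in IVA12, Cd3g at 1.15 FPKM and Cd2 at 9.99 FPKM. CD4 itself was at 0.985 FPKM in Jurkat and Cd4 at 0.208 FPKM in EL4, so the defining CD4 marker was low in both lines so described. TALL104 had CD8A at 28.3 FPKM and CD8B at 0.114 FPKM. In IVA12, 2 of 5 B-cell markers were at 1 FPKM or more, Cd79b at 163 FPKM and Ms4a1 at 46.5 FPKM, while Cd79a was at 0.0543 FPKM and Pax5 at 0.156 FPKM. All 5 markers of antibody-secreting cells were at 1 FPKM or more there, from 18.9 to 1289 FPKM. Genes of both lists were also measured in the T-cell lines. Of the 5 B-cell markers, 1 was at 1 FPKM or more in Jurkat (CD79A at 16.5 FPKM), 2 in TALL104 (CD79A at 24.6 FPKM and CD79B at 4.80 FPKM) and 0 in EL4. Of the 5 markers of antibody-secreting cells, 2 were in Jurkat (MZB1 at 47.7 FPKM and XBP1 at 31.3 FPKM), 3 in TALL104, with XBP1 highest at 76.6 FPKM, and 1 in EL4 (Xbp1 at 15.9 FPKM).

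BCL2 family proteins decide at the mitochondrial outer membrane whether a cell enters the intrinsic pathway of apoptosis. The guardians (BCL2, BCL-XL from BCL2L1, MCL1 and BCL2A1) hold the effectors BAX and BAK1 in check, the effectors form the pores through which cytochrome c leaves, and the BH3-only proteins (BIM from BCL2L11, BID, BAD and NOXA from PMAIP1) carry death signals by binding guardians or effectors through a short helix. In lymphocytes the balance of these proteins sets how many cells survive selection, cytokine withdrawal and activation. Messenger RNA gives only part of that balance, because MCL1 and NOXA proteins turn over fast and BID and BAD are controlled after translation.

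The contact between these classes runs through the BH3 helix, and the bases that encode its core are shown because every class carries it. The core was searched as a leucine, 3 further residues, and then glycine followed by aspartate, in the translated coding sequence of each human member. It was found exactly 1 time in 8 of the 10 human members. It was not found in BCL2A1 or in BAD, and in BAD a serine stood in place of the glycine at 1 match of the same spacing. Of 19553 human coding sequences, 2689 (13.8%) held the core, so a match is a description and not a site. The stretches below are 45 bases, 5′ to 3′ on the coding strand, read from hg19, with the codons of the leucine and of the glycine and aspartate in capitals.
BCL2L1, chr20:30309722-30309766, minus strand: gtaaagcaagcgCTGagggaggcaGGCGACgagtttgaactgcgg
MCL1, chr1:150551338-150551382, minus strand: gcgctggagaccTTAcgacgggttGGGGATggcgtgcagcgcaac
BAX, chr19:49459032-49459076, plus strand: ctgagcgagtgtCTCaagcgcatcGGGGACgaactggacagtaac
BAK1, chr6:33543161-33543205, minus strand: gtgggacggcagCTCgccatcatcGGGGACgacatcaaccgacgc
BCL2L11, chr2:111907668-111907712, plus strand: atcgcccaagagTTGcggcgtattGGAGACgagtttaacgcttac
BID, chr22:18222178-18222222, minus strand: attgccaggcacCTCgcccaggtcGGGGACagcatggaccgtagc
None of these stretches crosses an exon junction. The first pair are guardians, the middle pair effectors and the last pair BH3-only members.

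Summed over the members, the 4 lines held different mixtures of the classes. Guardians made up 67.1% of the family's summed FPKM in TALL104 and 60.8% in IVA12, against 45.2% in Jurkat and 30.2% in EL4. EL4 was the line in which effectors held the largest share, 55.6%, against 17.9% in Jurkat, 24.6% in TALL104 and 19.4% in IVA12. The listed BH3-only members were most weighty in Jurkat, with 36.9%, followed by 19.8% in IVA12, 14.2% in EL4 and 8.32% in TALL104. Other BH3-only genes, among them BMF, BBC3 and BIK, are outside these shares. These sums weight each member by its level, so a class follows its highest members. They also depend on the gene length used for each member, which is uncertain for Bax, the larger effector in EL4.

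**Figure D1:**
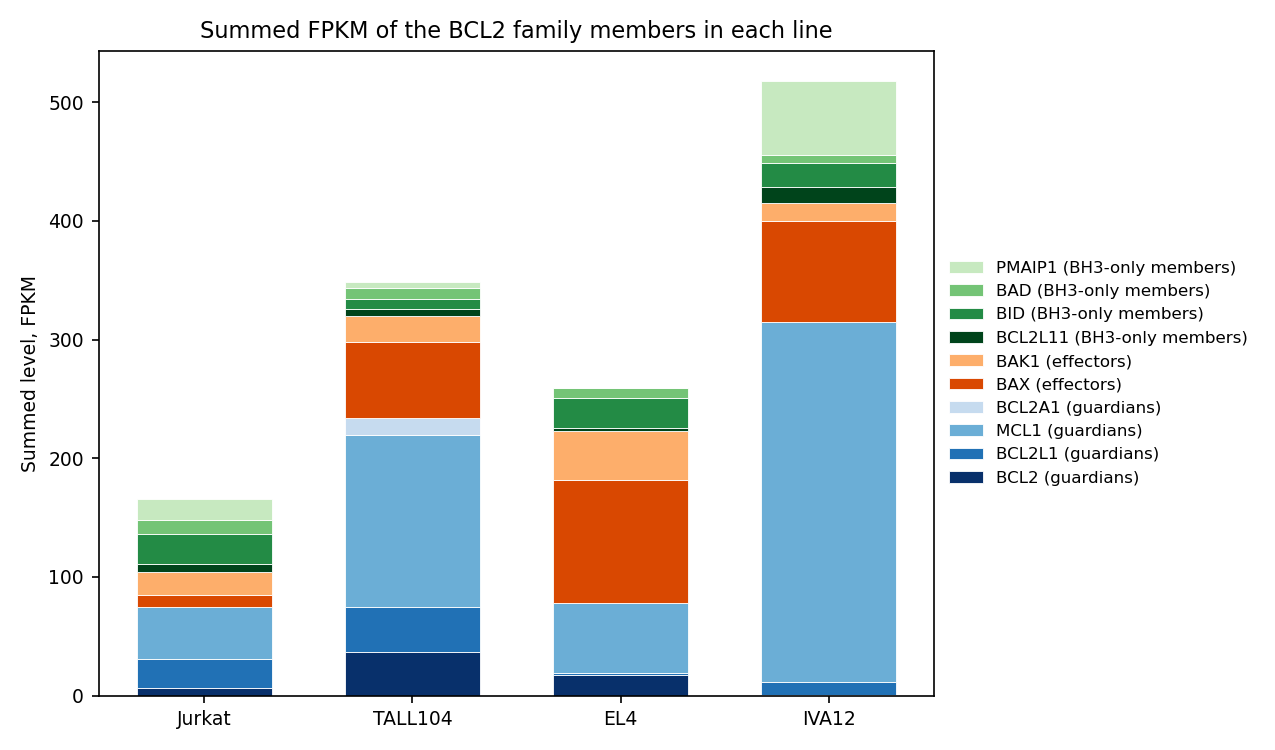
Stacked bars give the summed FPKM of the BCL2 family members in each of the 4 lines (y axis, FPKM, from 0), with guardians in blue, effectors in orange and BH3-only members in green, and the mouse Bcl2a1 paralogues under BCL2A1. MCL1 is the tallest guardian segment in every bar, and PMAIP1 is a tall segment in IVA12 only, at 62.1 FPKM.

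Guardians together were at 74.8 FPKM in Jurkat (interval 73.3 to 76.2) and at 234 FPKM in TALL104 (231 to 237), a 3.13-fold difference. In mouse they were at 78.4 FPKM in EL4 (76.9 to 80.0) and 315 FPKM in IVA12 (311 to 319), a 4.01-fold difference. The effectors were 2.90-fold higher in TALL104, at 85.7 against 29.6 FPKM, and 1.44-fold higher in EL4, at 144 against 100.2 FPKM. The 4 listed BH3-only members went the other way from the guardians in the human pair. They were at 61.1 FPKM in Jurkat and 29.0 FPKM in TALL104, 2.11-fold higher in Jurkat. That sum leaves out other BH3-only genes, so the difference holds for the 4 listed members and not for BH3-only genes as a whole. BMF (1.31 FPKM in Jurkat, 36.2 FPKM in TALL104) and BBC3 (0.407 and 5.17 FPKM) were higher in TALL104, and BIK (9.32 and 0.111 FPKM) in Jurkat. In the mouse pair the guardians and the listed BH3-only members were higher in the same line. These BH3-only members were at 36.7 FPKM in EL4 and 102 FPKM in IVA12, a 2.79-fold difference. The mouse guardian sums rested on Mcl1 and the effector sums on Bax, while the largest BH3-only member was Bid in EL4, with 68.5% of the class, and Pmaip1 in IVA12.

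Counted singly, 7 of 10 human members were past 1.5-fold. Of these, 5 were higher in TALL104 (BCL2, BCL2L1, MCL1, BCL2A1 and BAX) and 2 were higher in Jurkat (BID and PMAIP1), while BAK1, BCL2L11 and BAD lay within 1.5-fold. Among all human genes 11.4% were higher in TALL104 and 13.8% in Jurkat by the same rule, and among the 12214 human genes at 1 FPKM or more in either line the shares were 28.4% and 34.2%. All 10 human members reached 1 FPKM in at least 1 line, so the second pair of shares is the closer background. The members' median log2 ratio of Jurkat over TALL104 was -0.38, against 0.10 for those expressed genes and 0 for all human genes.

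In the mouse pair 6 of 13 members were past 1.5-fold, 4 of them higher in IVA12 (Bcl2l1, Mcl1, Bcl2l11 and Pmaip1) and 2 higher in EL4 (Bcl2 and Bak1). Among all mouse genes 11.2% were higher in IVA12 and 9.75% in EL4, and among the 10801 mouse genes at 1 FPKM or more in either line 26.5% and 23.8%. Of the 13 mouse members 9 reached 1 FPKM in either line, and the 4 that did not were the Bcl2a1 paralogues. The median log2 ratio of EL4 over IVA12 over all 13 was 0.00, which was the value of a paralogue listed at 0 in both lines.

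**Figure D2:**
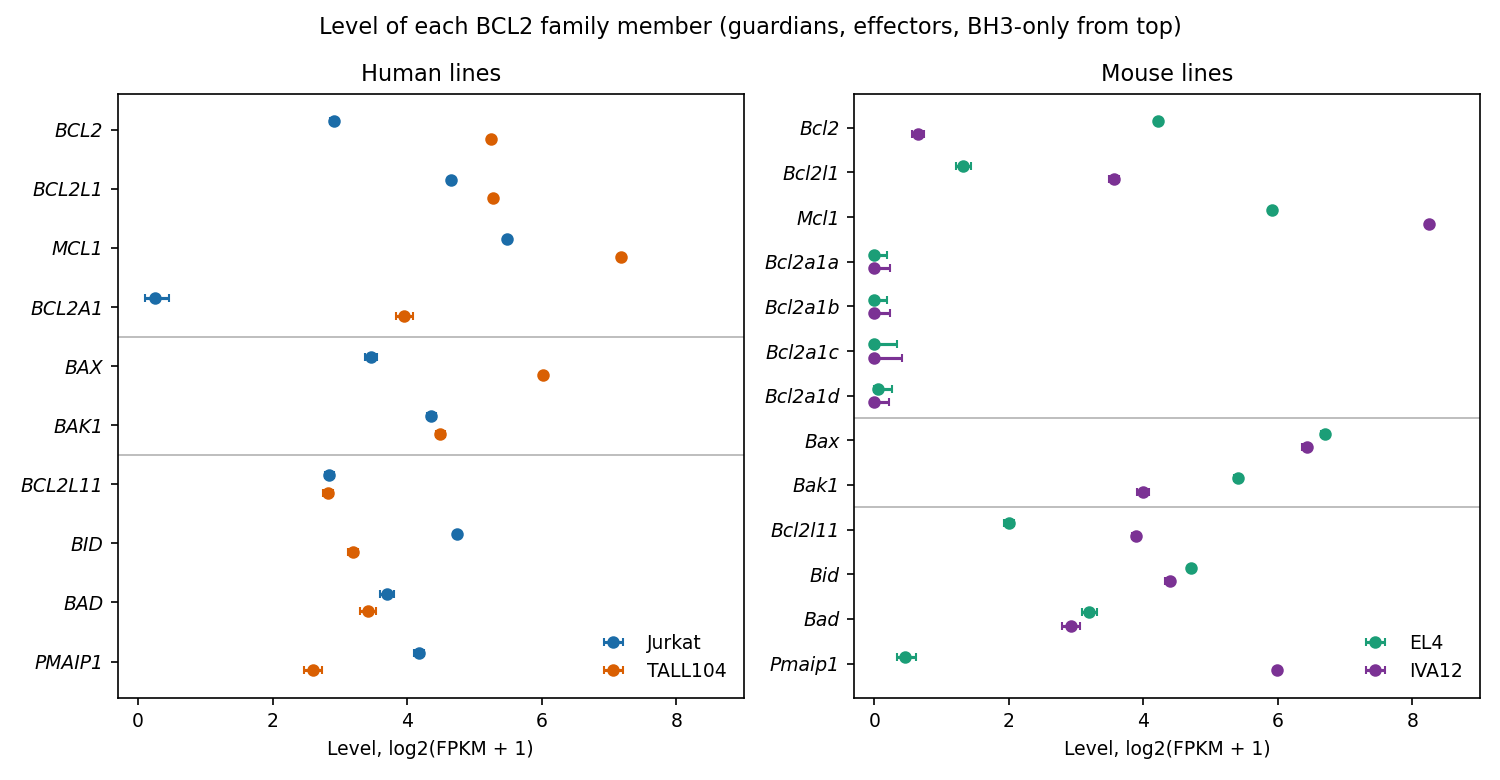
Points give the level of each member as log2(FPKM + 1) in the human lines (left) and the mouse lines (right), with bars for the 95% counting interval and grey lines between guardians, effectors and BH3-only members. Mcl1 in IVA12 is the highest point, at 303 FPKM, and the Bcl2a1 paralogues sit at or beside 0 in both mouse lines.

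MCL1 (ENSG00000143384, chr1:150533371-150552214, minus strand, hg19), the short-lived guardian on which many lymphoid cells depend, was the highest guardian in every line. It was at 43.8 FPKM in Jurkat (42.8 to 44.9) and at 144 FPKM in TALL104 (142 to 146), 3.29-fold higher in TALL104 (3.20 to 3.39). Mouse Mcl1 (ENSMUSG00000038612, chr3:95658788-95663176, plus strand, mm10) was at 59.3 FPKM in EL4 (57.8 to 60.7) and at 303 FPKM in IVA12 (300 to 307), 5.12-fold higher in IVA12 (4.98 to 5.26). It ranked 126 among the mouse genes of IVA12 and MCL1 ranked 155 among the human genes of TALL104. MCL1 supplied 58.6% of the guardians' summed FPKM in Jurkat and 61.7% in TALL104, and Mcl1 supplied 75.6% in EL4 and 96.4% in IVA12. The line with less MCL1 thus still had it as the main guardian transcript.

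BCL2 (ENSG00000171791, chr18:60790579-60987361, minus strand), the founding member of the family and a survival factor of mature lymphocytes, was at 6.51 FPKM in Jurkat (6.21 to 6.83, from 1736 reads) and at 37.1 FPKM in TALL104 (36.3 to 37.9, from 8053 reads). The difference was 5.69-fold (5.40 to 5.999), or -2.34 as the log2 ratio of Jurkat over TALL104. Mouse Bcl2 (ENSMUSG00000057329, chr1:106538178-106714274, minus strand) was at 17.6 FPKM in EL4 (17.2 to 18.1, from 5190 reads) and at 0.566 FPKM in IVA12 (0.473 to 0.671, from 131 reads). That was 31.2-fold higher in EL4 (26.2 to 37.4), and Bcl2 was the 1 mouse guardian past 1.5-fold toward EL4. BCL2 supplied 8.71% of the guardians' FPKM in Jurkat, 15.9% in TALL104 and, as Bcl2, 22.5% in EL4 and 0.180% in IVA12.

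BCL2L1 (ENSG00000171552, chr20:30252255-30311792, minus strand) encodes the guardian BCL-XL and, by a shorter splice form, a pro-apoptotic protein, which a level per gene does not separate. It was at 24.2 FPKM in Jurkat (23.3 to 25.1) and at 37.9 FPKM in TALL104 (36.6 to 39.1), 1.56-fold higher in TALL104 (1.49 to 1.64). Its log2 ratio of -0.62 had an interval from -0.69 to -0.55, which reaches to the other side of the 1.5-fold line. Bcl2l1 (ENSMUSG00000007659, chr2:152780668-152831728, minus strand) was at 1.51 FPKM in EL4 (1.31 to 1.72, from 222 reads) and at 10.8 FPKM in IVA12 (10.2 to 11.4, from 1250 reads), 7.16-fold higher in IVA12 (6.20 to 8.29). Bcl2 and Bcl2l1 were therefore ordered oppositely between the mouse lines, whereas both human genes were higher in TALL104. In TALL104 the counting intervals of BCL2L1 and BCL2 overlapped.

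BCL2A1 (ENSG00000140379, chr15:80253234-80263538, minus strand), a guardian induced by NF-kB signalling in activated lymphocytes, was nearly absent from Jurkat, at 0.185 FPKM (0.0743 to 0.381) from 7 reads. In TALL104 it was at 14.5 FPKM (13.2 to 16.0) from 449 reads, 78.7-fold higher with a wide counting interval of 37.9 to 197. This was the largest human difference among the members, -3.71 as a log2 ratio.

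The 4 mouse paralogues of this gene lie on chromosome 9, and Bcl2a1a (ENSMUSG00000102037), Bcl2a1b (ENSMUSG00000089929) and Bcl2a1c (ENSMUSG00000053820) were listed at 0 in both mouse lines. Bcl2a1d (ENSMUSG00000099974) was at 0.0360 FPKM in EL4, from 1 read, and listed at 0 in IVA12. A count of 0 allows up to 3 reads, or 0.114 FPKM for Bcl2a1a in EL4 and 0.145 FPKM in IVA12. Bcl2a1a, Bcl2a1b and Bcl2a1d are nearly identical over their coding sequences, and the opening is shown to set out which bases tell the paralogues apart. Coding bases from the start codon on, as many as a sequencing read of the study has, are given 5′ to 3′ from the GENCODE M21 transcripts on mm10, with bases that differ from Bcl2a1a in capitals.
Bcl2a1a, chr9:88957051-88957151, plus strand: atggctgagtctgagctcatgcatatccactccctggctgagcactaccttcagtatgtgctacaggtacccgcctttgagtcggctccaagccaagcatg
Bcl2a1b, chr9:89199360-89199460, plus strand: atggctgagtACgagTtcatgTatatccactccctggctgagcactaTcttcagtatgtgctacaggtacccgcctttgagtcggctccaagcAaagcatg
Bcl2a1c, chr9:114330156-114330256, plus strand: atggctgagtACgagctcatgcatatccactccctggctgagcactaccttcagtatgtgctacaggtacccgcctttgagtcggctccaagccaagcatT
Bcl2a1d, chr9:88731619-88731719, minus strand: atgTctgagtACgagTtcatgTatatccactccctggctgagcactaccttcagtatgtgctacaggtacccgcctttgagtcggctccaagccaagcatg
Bcl2a1b differed from Bcl2a1a at 6 of these bases, Bcl2a1c at 3 and Bcl2a1d at 5. Over the 516 coding bases, Bcl2a1a was 97.9% identical to Bcl2a1b and 98.6% to Bcl2a1d, and Bcl2a1b was 98.8% identical to Bcl2a1d. The coding sequence of Bcl2a1c has 384 bases and was 82.6% to 83.1% identical to the others, compared position by position without gaps. Of the read-length windows of their annotated transcripts, 43.1% of Bcl2a1a, 56.3% of Bcl2a1b, 54.0% of Bcl2a1d and 0% of Bcl2a1c occurred exactly in another gene. How reads with several alignments were counted was not given in the sources used here, so the levels of Bcl2a1a, Bcl2a1b and Bcl2a1d are uncertain. Reads were known per gene and not per window, so windows that were not shared could not be looked at apart, and the place of the 1 read on Bcl2a1d is not known.

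The effectors were present in every line, but BAX differed more than BAK1 in the human pair and less in the mouse pair. BAX (ENSG00000087088, chr19:49458072-49465055, plus strand), which moves from the cytosol to mitochondria when activated, was at 10.02 FPKM in Jurkat (9.38 to 10.7) and at 64.2 FPKM in TALL104 (62.4 to 66.0). The difference was 6.40-fold (5.96 to 6.88). Mouse Bax (ENSMUSG00000003873, chr7:45461697-45466898, minus strand) was at 103 FPKM in EL4 (99.2 to 107) and at 85.2 FPKM in IVA12 (81.4 to 89.2), 1.21-fold higher in EL4 (1.14 to 1.28) and within the 1.5-fold limit. Bax was the highest member in EL4 by FPKM, above Mcl1, an order that depends on the gene lengths used. Bax has a recovered length of 869 against 1576 annotated exon bases, and Mcl1 has 3418 in both.

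BAK1 (ENSG00000030110, chr6:33540324-33548070, minus strand), the effector that resides in the outer membrane, was at 19.6 FPKM in Jurkat (18.6 to 20.6) and at 21.6 FPKM in TALL104 (20.4 to 22.7), a ratio of 1.10 (1.02 to 1.19). Bak1 (ENSMUSG00000057789, chr17:27019810-27029009, minus strand) was at 41.3 FPKM in EL4 (39.9 to 42.8) and at 14.98 FPKM in IVA12 (14.0 to 16.0), 2.76-fold higher in EL4 (2.56 to 2.97). Jurkat was the line in which BAK1 was above BAX, holding 66.1% of the effectors' FPKM. BAX held 74.9% in TALL104, and Bax held 71.4% in EL4 and 85.0% in IVA12.

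**Figure D3:**
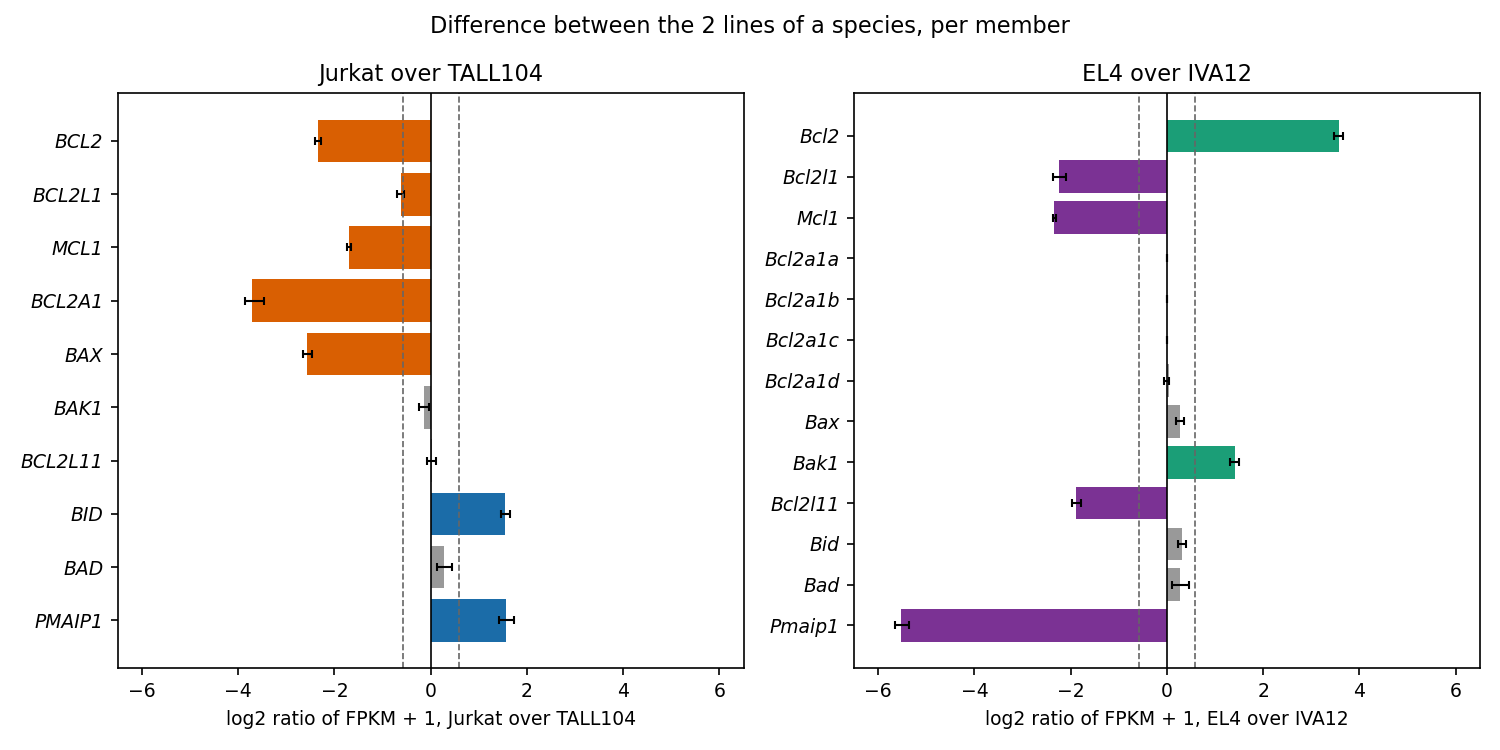
Bars give the log2 ratio of FPKM + 1 for each member, Jurkat over TALL104 (left) and EL4 over IVA12 (right), coloured by the line with the higher level where past 1.5-fold (dashed lines) and grey otherwise, with black 95% counting intervals. All 4 human guardians point to TALL104, and Pmaip1 is the longest bar, at -5.52.

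BH3-only members split in the human pair. BID (ENSG00000015475, chr22:18216904-18257536, minus strand), which caspase-8 cleaves to link death receptors to mitochondria, was at 25.9 FPKM in Jurkat (25.1 to 26.7) and at 8.15 FPKM in TALL104 (7.66 to 8.67), 3.17-fold higher in Jurkat (2.96 to 3.40). PMAIP1 (ENSG00000141682, chr18:57567228-57571537, plus strand) encodes NOXA, a p53-inducible protein that binds MCL1. It was at 17.0 FPKM in Jurkat (16.1 to 17.9) and at 5.07 FPKM in TALL104 (4.53 to 5.65), 3.36-fold higher in Jurkat (2.97 to 3.80). BCL2L11 (ENSG00000153094, chr2:111876955-111926021, plus strand), which encodes BIM, was at 6.18 FPKM in Jurkat (5.86 to 6.51) and 6.09 FPKM in TALL104 (5.74 to 6.45), with a ratio of 1.01 (0.938 to 1.10). BAD (ENSG00000002330, chr11:64037302-64052176, minus strand), which growth factor signalling holds inactive by phosphorylation, was at 12.02 FPKM (11.2 to 12.9) and 9.69 FPKM (8.83 to 10.6), with a ratio of 1.24 (1.10 to 1.40). None of these 4 members was past 1.5-fold toward TALL104, the line in which the guardians were higher. Outside the members, the BH3-only genes BMF and BBC3 were past it, 27.6-fold and 12.7-fold higher in TALL104. BIK was past it toward Jurkat, 83.9-fold higher, from 3 reads in TALL104.

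In the mouse pair the BH3-only members past 1.5-fold were both higher in IVA12. Pmaip1 (ENSMUSG00000024521, chr18:66458533-66465565, plus strand) was at 0.376 FPKM in EL4 (0.257 to 0.531, from 32 reads) and at 62.1 FPKM in IVA12 (60.2 to 64.0, from 4155 reads), 165-fold higher in IVA12 (117 to 242). This was the largest difference among the 23 members in either pair, and Pmaip1 supplied 60.6% of the BH3-only FPKM in IVA12 against 1.02% in EL4. Bcl2l11 (ENSMUSG00000027381, chr2:128126038-128162547, plus strand) was at 2.999 FPKM in EL4 (2.79 to 3.22) and at 13.8 FPKM in IVA12 (13.3 to 14.3), 4.59-fold higher in IVA12 (4.24 to 4.98). Bid (ENSMUSG00000004446, chr6:120891930-120916853, minus strand) was at 25.2 FPKM in EL4 and 20.0 FPKM in IVA12, a ratio of 1.26 (1.19 to 1.34). Bad (ENSMUSG00000024959, chr19:6941861-6951899, plus strand) was at 8.18 FPKM and 6.601 FPKM, a ratio of 1.24 (1.08 to 1.43). Bad and BAD were within 1.5-fold in their pairs, at levels from 6.601 to 12.02 FPKM over the 4 lines.

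Ordered by level, the members of Jurkat ran MCL1, BID, BCL2L1, BAK1, PMAIP1, BAD, BAX, BCL2, BCL2L11 and BCL2A1. Of these neighbours, BID with BCL2L1 and BCL2 with BCL2L11 had overlapping counting intervals. In TALL104 the order was MCL1, BAX, BCL2L1, BCL2, BAK1, BCL2A1, BAD, BID, BCL2L11 and PMAIP1, and only BCL2L1 with BCL2 overlapped. In EL4 it was Bax, Mcl1, Bak1, Bid, Bcl2, Bad, Bcl2l11, Bcl2l1 and Pmaip1, with no overlap among these, followed by the Bcl2a1 paralogues. In IVA12 it was Mcl1, Bax, Pmaip1, Bid, Bak1, Bcl2l11, Bcl2l1, Bad and Bcl2, and Bak1 with Bcl2l11 overlapped. PMAIP1 was the lowest member of TALL104, and Pmaip1 the third highest of IVA12. Orders between genes also depend on the gene lengths behind FPKM, which the counting intervals do not cover. In EL4 this bears on the order of Bax and Mcl1.

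Some members share exon bases with a neighbouring gene, and whether the counting used strand was not given in the sources used here. GPR137 covers 23.7% of the exon bases of BAD and was at 4.60 FPKM in Jurkat and 3.95 FPKM in TALL104, and Gpr137 covers 20.5% of those of Bad and was at 3.90 FPKM in EL4 and 1.39 FPKM in IVA12. Bcl2l13, on the opposite strand, covers 17.7% of Bid and was at 16.5 FPKM in EL4 and 10.1 FPKM in IVA12, below Bid in both lines. The genes annotated as Ggnbp1 cover 25.5% of Bak1, and the entry in the table was at 0.157 FPKM in EL4 and 1.95 FPKM in IVA12. MIR4435-2HG covers 10.8% of BCL2L11 and was at 1.39 FPKM in Jurkat and 1.78 FPKM in TALL104. ABALON covers 41.3% of the exon bases of BCL2L1 and was not among the genes measured. All these shares are over GENCODE exons, which can differ from the gene models that were counted. BCL2L1 has 4197 annotated exon bases against a recovered length of 3314, BCL2 12612 against 7665 and MCL1 6222 against 4218. In mouse, Bax has 1576 against 869 and Bad 2558 against 2007. Levels compared between genes, and shares of a class, depend on these lengths, while folds of a gene between lines do not. Other overlaps lie on the same strand, where no strand setting separates the reads. Gm29094 covers 49.1% of Bcl2a1b and was listed at 0 in both mouse lines, and Gm45808 covers 12.2% of Bax and was not among the genes measured. ADAMTSL4-AS1 and, on the other strand, ADAMTSL4 together cover 5.27% of MCL1, with ADAMTSL4-AS1 at 0.504 FPKM in TALL104 and listed at 0 in Jurkat. Reads of these stretches cannot be assigned with certainty.

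Other genes of the same pathway were taken from 5 lists. Among 11 further BCL2 relatives, 2 were past 1.5-fold toward Jurkat, 2 toward TALL104 and 7 within, with a median log2 ratio of 0.02 and a mean of -0.17. BMF, a BH3-only protein that senses cytoskeletal stress, was at 1.31 FPKM in Jurkat and 36.2 FPKM in TALL104, 27.6-fold higher in TALL104 (24.3 to 31.5). BIK, another BH3-only protein, was at 9.32 FPKM in Jurkat and 0.111 FPKM in TALL104, where it rested on 3 reads, so the ratio of 83.9 has a counting interval of 28.5 to 409. BH3-only genes outside the members were thus high in either human line. In the mouse pair 2 relatives were higher in EL4, 3 in IVA12 and 6 within, with a median of 0.00. Of the 11 mouse relatives, 6 reached 1 FPKM in either line. Bik was listed at 0 in EL4 and was at 4.19 FPKM in IVA12, from 100 reads. Bbc3, which encodes the p53-inducible protein PUMA, was at 1.75 FPKM in EL4 and 5.81 FPKM in IVA12, 3.32-fold higher (2.66 to 4.16).

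Downstream of the pores, the list of cytochrome c, APAF1 and caspases had 2 of 6 genes higher in Jurkat and 2 in TALL104, with a median of 0.10. CYCS, cytochrome c itself, was at 68.1 FPKM in Jurkat and 15.1 FPKM in TALL104, 4.51-fold higher in Jurkat (4.30 to 4.74). APAF1, the scaffold of the apoptosome, was at 6.14 and 12.8 FPKM, 2.09-fold higher in TALL104 (1.97 to 2.22). In the mouse pair 3 of 6 were higher in EL4 and none in IVA12, with a median of 0.61. Apaf1 was at 9.88 FPKM in EL4 and 4.45 FPKM in IVA12, 2.22-fold higher in EL4 (2.06 to 2.38). APAF1 was thus higher in TALL104 and in EL4.

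Inhibitors of apoptosis proteins and their antagonists had 3 of 7 genes higher in Jurkat and 3 in TALL104, with a median of -0.11 and a mean of 0.25. BIRC5, survivin, which also serves in cell division, was at 37.6 FPKM in Jurkat and 1.28 FPKM in TALL104, 29.5-fold higher in Jurkat (24.9 to 35.1). BIRC6, a large ubiquitin ligase, was at 6.48 and 34.8 FPKM, 5.37-fold higher in TALL104 (5.19 to 5.56). In mouse 1 of 7 was higher in EL4 and 2 in IVA12, with a median of -0.24. Birc3 (cIAP2), an NF-kB target, was at 3.97 FPKM in EL4 and 15.9 FPKM in IVA12, 4.01-fold higher (3.67 to 4.39), and Htra2, a mitochondrial protease that antagonizes these inhibitors, was at 16.9 and 40.3 FPKM.

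Of the mitochondrial partners of the family, 6 of 7 were past 1.5-fold toward Jurkat and none toward TALL104, with a median of 1.19, beside 34.2% and 28.4% of the expressed human genes and their median of 0.10. The list was not tested. VDAC1, the major channel of the outer membrane, was at 131 FPKM in Jurkat and 39.7 FPKM in TALL104, 3.31-fold higher (3.19 to 3.44), and VDAC2, which binds BAK1, was at 52.9 and 20.3 FPKM. BAK1 itself was within 1.5-fold in this pair. In mouse 2 of 7 were higher in EL4 and 1 in IVA12, with a median of 0.21. Bnip3 and Bnip3l, mitophagy receptors with a BH3-like stretch, were the furthest toward EL4, Bnip3 at 35.3 against 5.17 FPKM and Bnip3l at 14.5 against 8.60 FPKM.

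Of the transcription factors that act on family members, 4 of 6 were past 1.5-fold toward TALL104 and 1 toward Jurkat, beside the same background shares of 28.4% and 34.2%. Their median was -1.55 and their mean -0.40, and the list was not tested. MYB, a regulator of immature lymphoid cells for which BCL2 is a known target, was at 88.8 FPKM in Jurkat and 0.508 FPKM in TALL104, 175-fold higher in Jurkat (140 to 221). FOXO1, which acts on BCL2L11, was at 1.05 FPKM in Jurkat and 12.7 FPKM in TALL104, 12.1-fold higher in TALL104 (10.5 to 14.0). BCL2 was lower in the human line with more MYB, and BCL2L11 was level while FOXO1 was not. In mouse 2 of 6 were higher in EL4 and none in IVA12, with a median of 0.43. Myb was at 64.2 FPKM in EL4 and 7.80 FPKM in IVA12, 8.23-fold higher (7.66 to 8.86), in the line where Bcl2 was also higher. Ddit3, a stress-induced factor also known as CHOP, was at 10.1 and 5.66 FPKM. With 4 lines no relation between a factor and a member was tested.

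**Figure D4:**
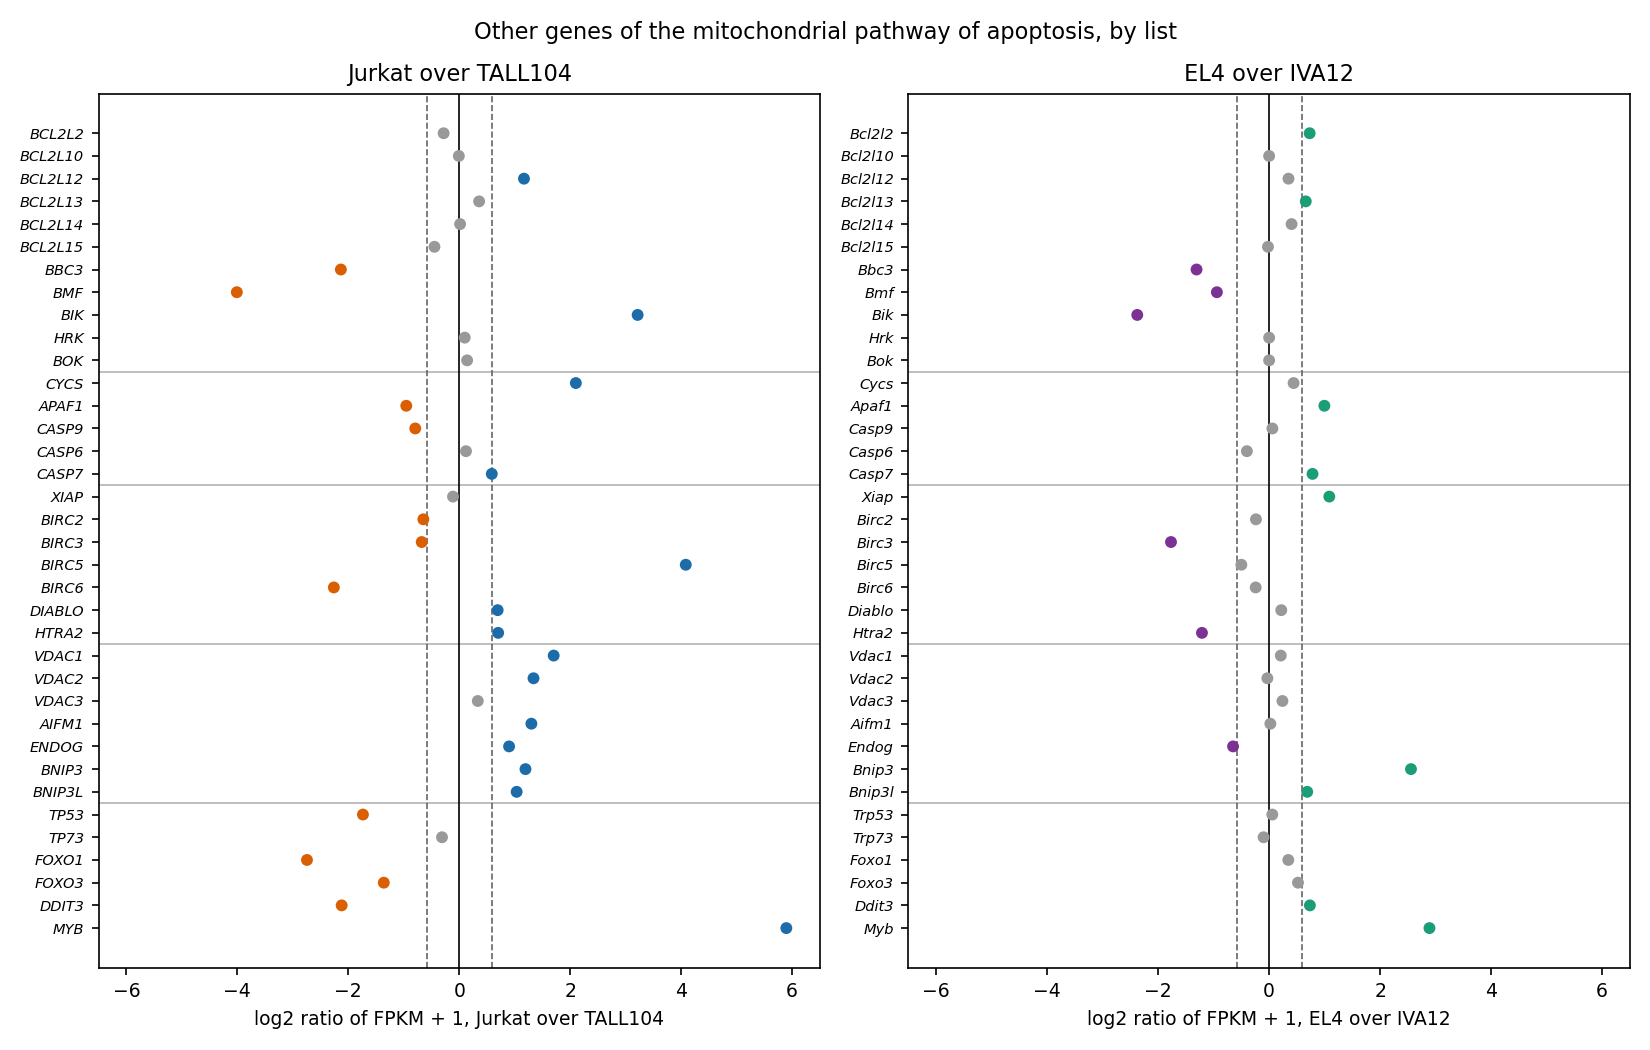
Points give the log2 ratio of FPKM + 1 of the genes shown from 5 further lists of the pathway, separated by grey lines, for Jurkat over TALL104 (left) and EL4 over IVA12 (right), coloured by the line with the higher level where past 1.5-fold (dashed lines) and grey otherwise. The mitochondrial partners lie to the Jurkat side, with a median of 1.19, and MYB is the point furthest right, at 88.8 against 0.508 FPKM.

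The genes whose levels were most like those of BCL2 over the 4 lines were sought among 15552 genes with the same symbol in both species, by the Euclidean distance of log2(FPKM + 1). ARHGEF3, a guanine nucleotide exchange factor, was nearest at a distance of 0.72, with 7.79 and 47.3 FPKM in Jurkat and TALL104 and 15.1 and 0.0662 FPKM in EL4 and IVA12. GPR65, a proton-sensing receptor, followed at 0.73, with 5.38, 52.3, 12.9 and 0.309 FPKM in the same order. BATF, an AP-1 family transcription factor of lymphocytes, was at 0.85, with 6.63, 26.2, 10.8 and 0.331 FPKM. All 3 were higher in TALL104 than in Jurkat and higher in EL4 than in IVA12, like BCL2. They were chosen for this likeness, which rests on 4 libraries.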

How the data were processed

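Total RNA of 4 cell lines, 1 library per line, had been sequenced as paired reads of 101 bases. Per the study's methods and the submitters' processing notes, the authors aligned the reads with STAR 2.5.1b to a combined hg19 and mm10 reference (Cell Ranger 1.2.0) and counted them per gene with featureCounts 1.6.3. The authors deposited the values as FPKM. Gene lengths, the strand setting and how reads that align in several places were treated are not given in the sources used here. The table had 0 columns of other samples.

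Whole reads were recovered from the steps between FPKM values (tolerance 1e-12), with the shortest gene length that gave whole reads, so a read number may lack a common factor, which would make its interval too wide but leaves FPKM and folds as they are. The read totals that FPKM was divided by were recovered as 34783047 (Jurkat) and 28345951 (TALL104) in human. In mouse they were 32149319 (EL4) and 25286728 (IVA12). These totals need not equal the number of reads sequenced. Positions came from GENCODE release 44 on hg19 and M21 on mm10, which named 31182 human and 27722 mouse genes.

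Lines were compared within a species by the ratio of FPKM + 1 and called past 1.5-fold. With 1 library per line there was no test. Text names every member, in each other list and pair the 2 genes furthest from a log2 ratio of 0, list genes listed at 0 in 1 line and at 1 FPKM or more in the other, and the 3 genes nearest to BCL2. Some list genes are not reported here. Neighbouring genes, markers and, in the human pair, BBC3 are named for the limits they set. The members and lists were chosen with earlier results of these data known. Alternatives were smaller pseudocounts (0.1, 0.01), only genes that reach 1 FPKM in either line, scaling by the median ratio or to equal nuclear totals, a 2-fold limit and summed Bcl2a1 paralogues. The calculations were tested on simulated data and used Python 3.11.15, NumPy 2.4.6, pandas 2.3.3, SciPy 1.17.1, matplotlib 3.10.9 and Biopython 1.88.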

Additional observations from a re-analysis of the deposited data

Results flagged for a closer look

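Reads had been aligned to both genomes at the same time, so the members of the other species, which a pure culture does not carry, give the background of each library. Reads were seen on these members in each library, summed over members, which does not give a limit for a single gene. Jurkat had 8 reads on mouse members, with 10 of 13 listed at 0 and the highest, Mcl1, at 0.0421 FPKM. TALL104 had 16 reads on mouse members, with 7 of 13 listed at 0 and the highest, Bcl2l1, at 0.0462 FPKM. EL4 had 17 reads on human members, with 4 of 10 listed at 0 and the highest, MCL1, at 0.0442 FPKM. IVA12 had 48 reads on human members, with none listed at 0 and the highest, MCL1, at 0.225 FPKM from 24 reads. BCL2A1 in Jurkat, at 0.185 FPKM from 7 reads, was above each level seen in the other species' members of the Jurkat library. Its counting interval (0.0743 to 0.381 FPKM) overlapped that of Mcl1 there (0.0137 to 0.0981 FPKM, from 5 reads). The 1 read on Bcl2a1d in EL4, at 0.0360 FPKM, lay at the level of this background. The cause was not tested.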

How the results depend on the processing

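The counts of members past 1.5-fold moved by at most 1.5 times under each alternative, and no difference past 1.5-fold changed direction. At a 2-fold limit 6 human members remained past it, since BCL2L1 dropped out, and with a pseudocount of 0.01 the mouse count was 7 and its part higher in EL4 went from 2 to 3, since Bcl2a1d, with 1 read in EL4, was added. BCL2L11 in the human pair, within 1.5-fold, was on either side of 0, from -0.08 to 0.02. Low levels depended most on the pseudocount: the log2 ratio of BCL2A1 ranged from -6.22 to -3.71, of Pmaip1 from -7.33 to -5.51 and of Bcl2 in mouse from 3.57 to 4.94. These included, values moved out of their counting interval in 10 of 23 results at each smaller pseudocount and in 10 of 29 under each scaling. Under scaling these included Bcl2a1d, which only went from 0.0511 to 0.0514 or 0.0512. Its interval ends at the value itself, because it had 0 reads in IVA12. No paired analysis was possible because each line had 1 library, and leaving out a library would have left no comparison. Counting intervals do not include differences between cultures.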
